A study of Mus musculus with 3 samples.

Results

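The genes of the NF-κB transcription factors and of the proteins that hold them in check were examined for peaks of DLX3 and of H3K4me3. They are 10 of the 21900 protein-coding genes annotated in the mouse: Nfkb1, Nfkb2, Rel, Rela and Relb for the factors, and Nfkbia, Nfkbie, Nfkbiz, Bcl3 and Tnfaip3 for the inhibitors. They were chosen by name, and a peak was counted for a gene when any base of it lay over the gene's span or within 20 kb on either side. The chromatin came from suprabasal keratinocytes, epidermal cells that have left the basal layer and begun to differentiate, of wild type BALB/c mice. The sample labels call the animals adult while the series text speaks of newborn skin, and which holds was not settled here. ChIP-seq sequences the DNA pulled down with an antibody. DLX3, a homeodomain factor of epidermal differentiation, was pulled down in 1 library, with a list of 18087 peaks. H3K4me3, a histone methylation mark of active promoters, was pulled down in another, with 16735 peaks. Nonspecific IgG gave a further library, which was not analysed here. With 1 library per antibody there is no replicate spread and no test, so the values below describe these 2 lists.

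NF-κB dimers of Rel-family proteins wait in the cytoplasm of resting cells, bound by inhibitors of the IκB family. Signals from tumour necrosis factor, interleukin and Toll-like receptors activate the IκB kinases, the inhibitor is degraded, and the freed dimer binds κB sites in its target genes. Several targets encode the pathway's own brakes, among them Nfkbia and Tnfaip3, and others encode further Rel proteins. In the epidermis the pathway is known for its part in inflammation, keratinocyte survival and appendage formation.

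Promoter sequences are shown first, because most listed starts of these genes lay under peaks of both antibodies. RefSeq promoters (build GRCm38.p6, the assembly called mm10 by genome browsers) were listed for 7 of the 10 genes (Nfkb2, Rel, Rela, Nfkbia, Nfkbie, Bcl3 and Tnfaip3), with 10 starts in all. Each entry runs from 250 bases before the start to 50 bases from it on, in the reference strain and not in BALB/c. Of the 5 printed here, the first 4 lay at least in part under a DLX3 peak, and that of Rela, shown for contrast, did not. Capitals mark matches to the degenerate NF-κB consensus or to its stricter form GGG, 2 bases of any kind and TTTCC, on either strand; the strict matches lie within degenerate ones or overlap them.
Nfkbia, chr12:55492598-55492897, minus strand: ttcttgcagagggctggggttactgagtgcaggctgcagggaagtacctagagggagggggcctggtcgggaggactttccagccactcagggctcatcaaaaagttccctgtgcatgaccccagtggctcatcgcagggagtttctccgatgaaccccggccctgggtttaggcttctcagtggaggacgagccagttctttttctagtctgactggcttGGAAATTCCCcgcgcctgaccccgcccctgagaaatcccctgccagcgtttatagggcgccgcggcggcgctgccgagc
Tnfaip3, chr10:19015361-19015660, minus strand: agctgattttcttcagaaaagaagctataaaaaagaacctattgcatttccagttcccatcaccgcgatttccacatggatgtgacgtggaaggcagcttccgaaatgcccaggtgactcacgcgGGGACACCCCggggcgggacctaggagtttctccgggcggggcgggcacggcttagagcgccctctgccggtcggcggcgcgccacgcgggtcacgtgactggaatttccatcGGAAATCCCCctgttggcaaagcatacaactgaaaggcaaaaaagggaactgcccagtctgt
Nfkb2, chr19:46305445-46305744, plus strand: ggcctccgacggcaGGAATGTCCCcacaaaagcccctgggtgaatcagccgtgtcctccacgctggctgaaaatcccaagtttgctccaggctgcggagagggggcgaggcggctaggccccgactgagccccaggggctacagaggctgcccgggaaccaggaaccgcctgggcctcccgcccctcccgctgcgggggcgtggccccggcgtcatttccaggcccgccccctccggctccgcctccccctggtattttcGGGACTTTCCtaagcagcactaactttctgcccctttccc
Bcl3, chr7:19822706-19823005, minus strand: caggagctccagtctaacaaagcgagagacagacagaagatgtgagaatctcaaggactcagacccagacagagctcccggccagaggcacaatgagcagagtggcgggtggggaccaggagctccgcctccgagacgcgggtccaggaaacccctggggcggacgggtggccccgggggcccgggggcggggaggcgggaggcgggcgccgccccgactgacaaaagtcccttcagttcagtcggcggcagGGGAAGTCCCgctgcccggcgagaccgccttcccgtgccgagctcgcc
Rela, chr19:5637291-5637590, plus strand: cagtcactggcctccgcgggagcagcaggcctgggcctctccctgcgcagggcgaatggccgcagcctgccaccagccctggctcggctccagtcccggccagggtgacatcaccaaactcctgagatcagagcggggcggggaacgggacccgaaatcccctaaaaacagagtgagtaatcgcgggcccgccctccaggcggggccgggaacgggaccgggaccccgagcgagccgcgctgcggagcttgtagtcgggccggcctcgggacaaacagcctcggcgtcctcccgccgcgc

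The stricter form lay in a listed promoter of 4 of the 7 genes, Nfkb2, Rel, Nfkbia and Tnfaip3, against 1.89% of the 27025 genes in the promoter table. The degenerate consensus lay in 6 of the 7, with Rela the exception, against 9.55% of all. Matches were not limited to promoters under DLX3, as the choice printed above might imply. The promoters of Nfkbie and of the Nfkb2 start at 46304737, not printed, lay under no DLX3 peak. They held GGGGGATTCC and GGGGCTTTCC. In Nfkbia the match GGAAATTCCC began 29 bases before the start, in Tnfaip3 GGAAATCCCC began 12 bases before it, and in Nfkb2 GGGACTTTCC began 10 bases after it. The AP-1-like motif TGANTCA, with any base at N, lay in promoters of 3 of the 7, against 8.97% of all genes. Its matches were TGAATCA in Nfkb2, TGAGTCA in Nfkbie and TGACTCA in Tnfaip3. The homeodomain core TAATT, of the kind that DLX proteins bind, was found in 1 of the 7, Nfkbie, whose start was under no DLX3 peak, against 29.9% of all genes. Neither of its longer forms, TAATTA and TAATTG, was found in any of the 7, against 6.12% and 9.22% of all genes. The core was also less frequent in promoters under DLX3 generally. TAATT lay in 14.2% of the 6003 promoters under DLX3, against 27% of all 32851 promoters. For TAATTA the 2 shares were 2.12% and 5.29%, and for TAATTG 4.61% and 8%. A lower share was not particular to the homeodomain forms, since TGANTCA lay in 5.06% of promoters under DLX3 and 7.81% of all. The strict NF-κB form lay in 1.63% of both, and the degenerate consensus in 10.6% and 8.46%. TAATT holds only A and T, while the 10 listed promoters of the 7 genes were from 47% to 75% G and C. No share was matched for base composition or for H3K4me3, and the part of either was not tested. A match is a run of letters and not a bound site, and only these 300 bases were searched.

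DLX3 peaks lay over 9 of the 10 genes with their 20 kb flanks, and Rela was the gene without one. Across all protein-coding genes 52.4% had such a peak. H3K4me3 lay over all 10, against 71.2% of coding genes. A DLX3 peak on H3K4me3, meaning an overlap of 1 bp or more, was present at 9 of the 10, against 42.5%. Because every one of the 10 carried H3K4me3, the closer comparison is with the 15590 coding genes that had it in their window, of which 70.6% had a DLX3 peak. When a peak was given only to the coding gene nearest to its centre, 8 of the 10 had a DLX3 peak, against 36.7% of coding genes, and Nfkbie joined Rela among those without. The 42.5% and the 36.7% are over all coding genes, those without H3K4me3 included, and are not that closer comparison. Signal that would appear at active promoters with any antibody was not tested. The 10 windows had a median length of 54432 bp, against 57146 bp for all coding genes.

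**Figure D1:**
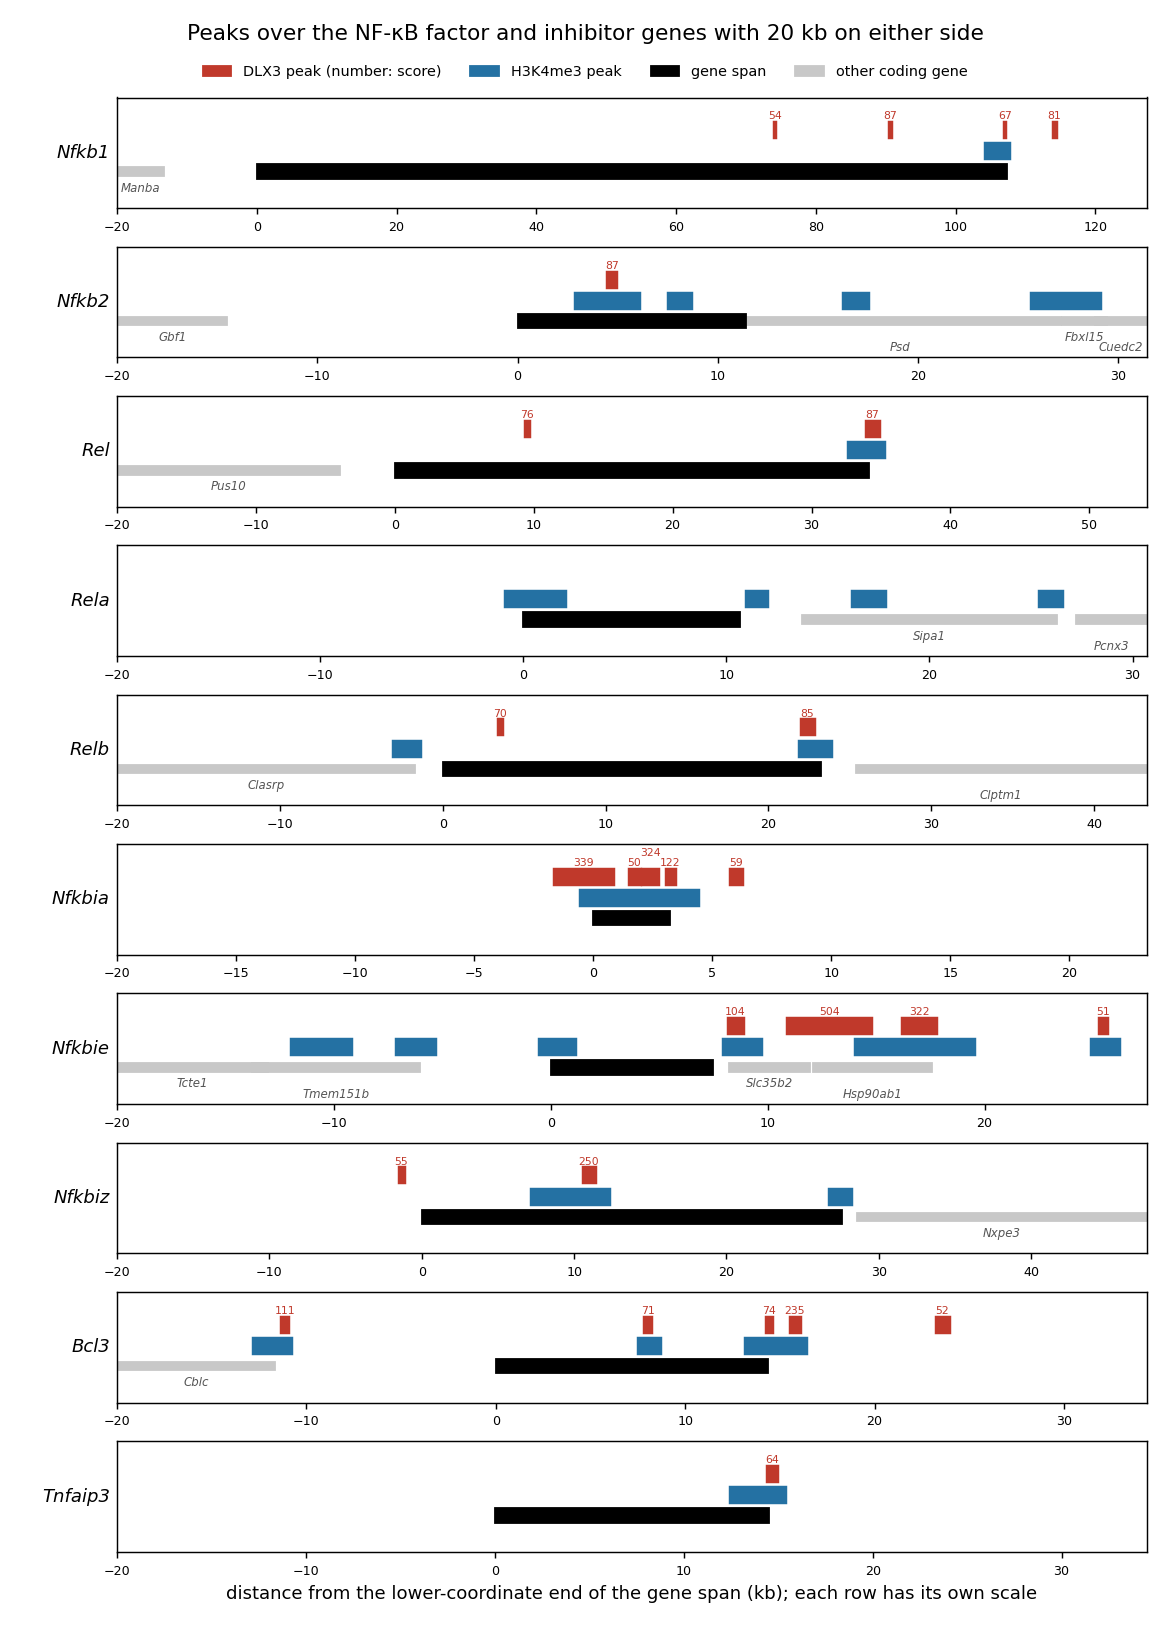
Positions of DLX3 peaks (red, with their score above) and H3K4me3 peaks (blue) over the 10 genes (black spans) with 20 kb on either side, and other coding genes in grey. The horizontal axis is the distance in kb from the lower-coordinate end of each span; DLX3 peaks are crowded on Nfkbia, lie over the neighbours at Nfkbie and are missing at Rela.

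In all, 26 DLX3 peaks and 25 H3K4me3 peaks lay in the 10 windows. The score of a peak is the authors' own value and is used only to rank it within its list, whose median was 83.35 for DLX3 and 823.67 for H3K4me3. The 26 DLX3 peaks had a median score of 83.02, so as a set they stood at the middle of their list. Their lowest was 50.09 and their highest 503.91. Taken as the highest score per window, the median was 87.16 over the 9 genes with a DLX3 peak. Over the 11486 coding genes with one it was 109.28. Of the 26, 18 (69.2%, exact 95% binomial interval 48.2 to 85.7, counting error only) lay on H3K4me3, against 50.4% of the 14538 DLX3 peaks in windows of all coding genes. The interval treats peaks as independent, although the windows of Nfkbia, Nfkbie and Bcl3 each gave 4 of the 18. The 18 on H3K4me3 had a median score of 95.56, and the 8 off it had a median of 64.09 and reached at most 86.55. Among DLX3 peaks in all coding windows the medians were 93.675 on H3K4me3 and 75.67 off it.

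Nfkb1, Nfkb2, Rel, Rela and Relb encode the DNA-binding subunits. All 5 had H3K4me3 over an end or a listed start, 4 of them in the top 20% of that list, whereas no DLX3 peak of theirs scored above 87.16. Nfkb1, whose product is the precursor of p50, had 4 DLX3 peaks over a span of 107315 bp on chromosome 3 (135584655 to 135691969), the longest of the 10. The DLX3 peak centred 300 bp inside its higher-coordinate end scored 66.67 and lay on the gene's single H3K4me3 peak, 3798 bp wide with a score of 3097.43. The other 3 DLX3 peaks, at 54.35, 86.55 and 81.26, lay off H3K4me3, the first 2 of them 33212 and 16736 bp inside the same end and the last 6792 bp beyond it. The strand of this gene, of Relb and of Nfkbiz was not in the tables used, so their ends are named by coordinate.

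Nfkb2, which encodes the precursor of p52 used by the noncanonical branch, had 1 DLX3 peak (chromosome 19, 46305429 to 46305964). Its score was 87.02, and its centre lay 1 bp from one of the 3 listed starts and inside an H3K4me3 peak of 3303 bp with a score of 2862.75. Rel, the gene of c-Rel, had a DLX3 peak of 1058 bp and score 87.16 (chromosome 11, 23770693 to 23771750) centred 252 bp before its start, on H3K4me3 of score 2817.55. A further DLX3 peak of Rel, at 76.42, lay 24604 bp into the gene without H3K4me3. Both genes thus had a mid-list DLX3 peak across a start whose H3K4me3 stood above 90% of its own list.

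Relb, partner of p52 in the noncanonical branch, had a DLX3 peak of 957 bp and score 84.78 (chromosome 7, 19628127 to 19629083), centred 833 bp inside its higher-coordinate end on H3K4me3 of score 1721.51. Another, of score 69.53, lay 3545 bp inside the other end off H3K4me3. Rela encodes p65, the main activating subunit of the canonical dimer. It had no DLX3 peak in its window although its start lay under an H3K4me3 peak of 3082 bp with a score of 2564.54. The nearest DLX3 peak outside the window (chromosome 19, 5614868 to 5615803; score 154.79) ended 21639 bp from the span, just past the 20 kb limit, and was nearest to Kat5. At the other 9 genes the next DLX3 peak outside the window lay between 27313 and 122702 bp from the span. Rela was therefore the subunit gene with a marked start and no DLX3 call, and weaker signal under the score floor of 50 cannot be read from a peak list.

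Among the inhibitors, Nfkbia, Nfkbiz and Bcl3 had own DLX3 peaks with scores of 234.83 and above, while Tnfaip3 reached 64.18 and Nfkbie had no DLX3 peak nearest to it. Nfkbia encodes IκBα, the inhibitor that is resynthesised within the NF-κB response. Over its span of 3239 bp on chromosome 12 (55489409 to 55492647) and its flanks lay 5 DLX3 peaks, of which 4 were on a single H3K4me3 peak of 5012 bp (score 2320.17) that covered the whole gene. From before the start onwards along the gene, the DLX3 scores were 58.65 at 2762 bp before the start, 122.33 across it, 323.8 at 847 bp inside, 50.09 at 1511 bp inside and 339.16 at 3655 bp, past the gene's end. The 2 high-scoring peaks ranked 287 and 353 of 18087. The highest, 2559 bp wide (55487713 to 55490271), was centred 417 bp outside the far end of the gene, at the border of the H3K4me3 peak, and not at the promoter.

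DLX3 peaks covered 2391 bp of Nfkbia, 73.8% of its span. Only 13 of the 21900 coding genes, Nfkbia included, had that share or more, and 0.219% had at least 50% of their span covered. Among the 10 genes the next highest share was 5.69%, at Relb, and for Rela and Nfkbie it was 0. Nfkbia is also the shortest of the 10, and a given width of peak covers more of a short gene.

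**Figure D2:**
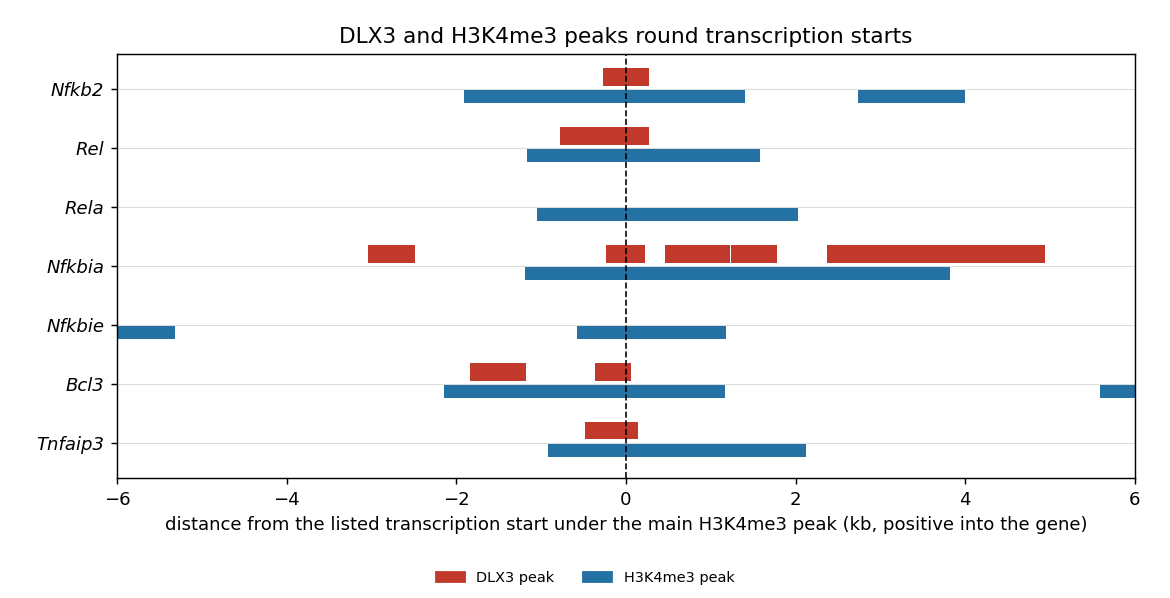
DLX3 (red) and H3K4me3 (blue) peaks within 6 kb of the transcription start of the 7 genes with a listed start, each peak drawn at its width; the horizontal axis is the distance from the start in kb, positive into the gene. H3K4me3 lies across all 7 starts and DLX3 across 5, and at Nfkbia DLX3 peaks run along the gene and past its end.

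At Nfkbie, the gene of IκBε, the count by window came from its neighbours. All 4 DLX3 peaks of the window lay outside Nfkbie and nearest to other genes. Those at 503.91 (chromosome 17, 45566550 to 45570504) and 321.95 were nearest to Hsp90ab1, the gene of a cytosolic chaperone, whose span lies 4609 bp from that of Nfkbie. Another, at 103.96, was nearest to Slc35b2, a solute carrier gene, and the last, at 50.8, to Slc29a1, a nucleoside transporter gene. The start of Nfkbie itself lay under an H3K4me3 peak of 1753 bp with a score of 612.27, below the list's median, and under no DLX3 peak. The 20 kb rule thus brought in the highest DLX3 score of the whole set through the chaperone gene.

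Nfkbiz and Bcl3 encode nuclear IκB proteins, which bind NF-κB dimers on DNA and can raise as well as lower transcription. Nfkbiz had its main peaks of both antibodies well inside the gene. Its DLX3 peak of 923 bp and score 250.11 (chromosome 16, 55821872 to 55822794; rank 816 of 18087) was centred 10958 and 16621 bp from the 2 ends of the span. It lay on an H3K4me3 peak of 5244 bp whose score, 3100, is shared by 766 peaks of that list and stands above 94.6% of it. A further H3K4me3 peak, of 1585 bp and score 815.42, covered the higher-coordinate end without DLX3. The other DLX3 peak, at 54.75, lay 1329 bp outside the lower-coordinate end off H3K4me3. A window that took in only the ends of the span would miss the strong DLX3 peak.

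At Bcl3 the highest DLX3 peak stood above 94.6% of its list, and the H3K4me3 peak near the start above 32%. The DLX3 peak across the start scored 74.14 and stood above 39.8% of its list. The highest, of 668 bp (chromosome 7, 19823930 to 19824597), centred 1508 bp before the start, scored 234.83 and ranked 982 of 18087. Both lay on an H3K4me3 peak of 3316 bp whose score of 352.65 exceeded only 32% of its list. Within the gene a DLX3 peak of 71.48 met a weak H3K4me3 peak of 133.73. Of the remaining DLX3 peaks, that of 51.7 lay 9286 bp before the start off H3K4me3, and that of 110.52 was nearest to Cblc, a ubiquitin ligase gene. Nfkb1 had the opposite order. Its DLX3 peak at the marked end stood above 29.6% of the DLX3 list, and its highest, off H3K4me3, above 53%. The H3K4me3 peak at that end stood above 94.6% of its own list.

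Tnfaip3 encodes a ubiquitin-editing enzyme that shuts off signalling upstream of the IκB kinases. It had 1 DLX3 peak, of 620 bp and score 64.18 (chromosome 10, 19015268 to 19015887), centred 167 bp before the first of its 2 listed starts. That start lay under H3K4me3 of 3050 bp and score 2015.79, and the second, further into the gene, lay under neither antibody's peaks. Among the 9 genes with a DLX3 peak in the window this was the lowest top score. It stood above 26.0% of its list, and the Nfkbia peak across the start above 74.2%; both are feedback genes with a κB match close to the start.

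**Figure D3:**
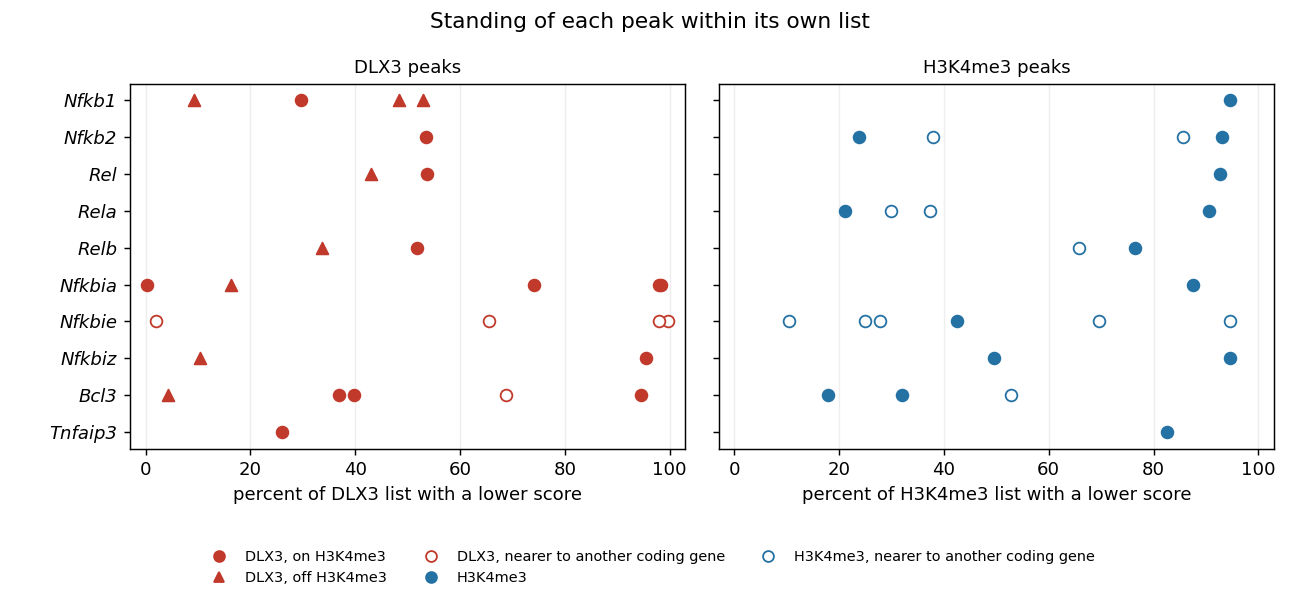
Standing of every peak in the 10 windows within its own list, as the percent of the list with a lower score, for DLX3 (left) and H3K4me3 (right); triangles are DLX3 peaks off H3K4me3, and open symbols are peaks nearer to another coding gene. Own DLX3 peaks in the top 20% belong to Nfkbia, Nfkbiz and Bcl3, those of Nfkb1, Nfkb2, Rel and Relb stop near the middle, that of Tnfaip3 stands above 26.0% of the list, and Nfkbie and Rela have none.

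At the starts themselves, a DLX3 peak covered a listed start in 5 of the 7 genes, Nfkb2, Rel, Nfkbia, Bcl3 and Tnfaip3, against 25.2% of the 17492 coding genes with a listed start. H3K4me3 covered a start in 7 of 7, against 59.6%. Among coding genes with H3K4me3 over a listed start, 41.8% also had DLX3 over one. The 5 DLX3 peaks across starts scored between 64.18 and 122.33, so the highest scores of Nfkbia and Bcl3 belonged to peaks that covered no listed start. The Nfkbiz peak could not be placed in this way.

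The remaining pathway was read from 112 further genes in 4 roles, listed by name with earlier results of these data known. Of the 112, 74 (66.1%) had a DLX3 peak in their window, against 52.4% of coding genes and 70.6% of those with H3K4me3. H3K4me3 was present at 91 (81.2%), against 71.2%. With peaks given to the nearest coding gene 60 (53.6%) had DLX3, against 36.7% of all coding genes, with or without H3K4me3. Shares with DLX3 ranged over the roles from 42.3% to 88.9%, given as counts without a test. Peak counts per gene are over the window, neighbours' peaks included, and no nearest gene is given for the lower peaks. Among 27 other inhibitors and ubiquitin enzymes 24 (88.9%) had DLX3 and 26 (96.3%) had H3K4me3, so the share to set beside the DLX3 count is again 70.6%. Zfp36, whose product destabilises cytokine mRNAs, led with 8 DLX3 peaks in its window. The highest, 456.19 on H3K4me3, was centred 7 bp outside the gene's span. Birc2, a ubiquitin ligase gene, had 1 at 290.78 inside its span, and Birc3, its neighbour and paralog, was credited with that same peak.

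Of 30 adaptors and kinases 23 (76.7%) had DLX3 and 29 (96.7%) had H3K4me3, and the DLX3 share was near the 70.6% of all coding genes with H3K4me3. Card14, a scaffold gene of keratinocytes linked to psoriasis in humans, had 4 DLX3 peaks with the highest at 322.01 inside the gene off H3K4me3. Irak3, which encodes a restraining member of the interleukin receptor-associated kinases, had 1 at 260.71, also inside and off H3K4me3. Irak2, another kinase of that family, had a top peak of 242.35 on H3K4me3 that was nearest to Tatdn2. Of the genes of the IκB kinase complex, named after their values were seen, Ikbkg, its regulatory subunit, had no DLX3 peak. The kinase genes Chuk and Ikbkb had 3 and 1 DLX3 peaks in their windows, all on H3K4me3. The highest peaks at Chuk (121.89) and Ikbkb (75.54) were nearest to Erlin1 and Polb. The nearest genes of the other Chuk peaks are not given here.

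Of 29 ligands and receptors 16 (55.2%) had DLX3 and 21 (72.4%) had H3K4me3, close to the 52.4% and 71.2% of all coding genes. Edar, the ectodysplasin receptor gene of hair and tooth placodes, had 5 DLX3 peaks, all off H3K4me3, the highest at 285.68 inside the gene. Tlr5, the flagellin receptor gene, had 3 off H3K4me3, the highest at 215.24 and 17285 bp outside. Edaradd, the adaptor gene of that ectodysplasin receptor, had a top score of 136.94 at a peak nearest to Lgals8. Of 26 target genes 11 (42.3%) had DLX3 and 15 (57.7%) had H3K4me3, against the same 52.4% and 71.2%. Neither peak was present at 10 of the 26, against 26.6% of coding genes. The 10, named after their values were seen, were Cxcl5, Cxcl10, Ccl2, Ccl5, Il6, Vcam1, Bcl2a1a, Csf2, Nos2 and Defb4, of which the first 5 and Csf2 encode chemokines and cytokines. Targets with high scores were Junb, Gadd45b and Bcl2l1. Junb, an AP-1 subunit gene, had 11 DLX3 peaks in its window, up to 332.59. Gadd45b, a growth arrest gene, reached 246.33 (nearest to Gng7). Bcl2l1, an anti-apoptotic gene, reached 246.03 (nearest to Id1).

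**Figure D4:**
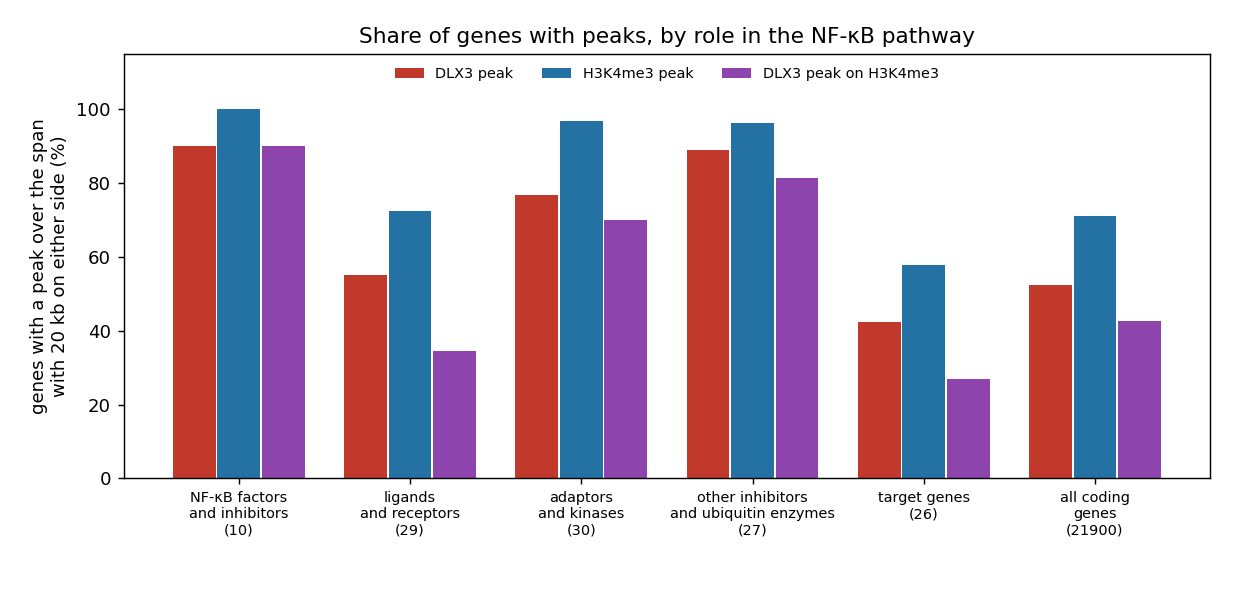
Percent of genes with a DLX3 peak (red), an H3K4me3 peak (blue) and a DLX3 peak on H3K4me3 (purple) over the span with 20 kb on either side, for the 10 NF-κB factor and inhibitor genes, the 4 roles of the other pathway genes and all coding genes, with the number of genes in brackets. DLX3 shares are 90% for the 10 genes and 52.4% for all coding genes. Over the roles they run from 42.3% for target genes to 88.9% for other inhibitors and ubiquitin enzymes. The closer share, 70.6% of coding genes with H3K4me3 in their window, is not drawn.

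Immune cells also use these genes heavily, so markers of the cells present were read from H3K4me3 within 1 kb of a gene end, which 59.3% of coding genes had. It was present at 8 of 10 suprabasal keratinocyte markers at scores from 76.82 to 2180.19 and at 6 of 6 basal ones from 126.84 to 1451.24, with Flg and Krt2 as the suprabasal markers without. Of 10 immune markers 1 had it, Cd79a at 1971.7, while Ptprc, the gene of the pan-leukocyte protein CD45, had no peak of either antibody in its window. Of the other lists, 4 of 6 fibroblast markers had it at scores from 78.7 to 476.21, as had 1 of 5 endothelial markers, Kdr at 328.62, and 1 of 5 melanocyte markers, Pmel at 2282.68. Whether these peaks, those at Cd79a and Pmel among them, belong to an adjoining gene was not tested. The part of other cells in the peaks at the NF-κB genes was not tested.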

How the data were processed

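ChIP-seq of DLX3, H3K4me3 and IgG in suprabasal keratinocytes gave 1 library each. Per the submitters' processing notes, Bowtie 1.1.2, MACS 1.4.2 and HOMER were used with build mm10; no source used here gives their settings or says whether IgG was the control. The authors deposited 1 peak list per library for DLX3 and H3K4me3, with a score per peak at or above 50, the form of the MACS score. Depth is unknown, and scores were compared within a list only.

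Positions count from 1. Genes came from a RefSeq table of GRCm38.p6 (spans without strand or exons), starts and strands from a RefSeq promoter table. Overlap required 1 bp. The nearest gene was the coding span closest to the peak centre, with ties to the shorter span. Il36a and Il36g were matched by synonym to Il1f6 and Il1f9. Named genes were the 10 members, the 3 top-scoring genes of each pathway role, and neighbours nearest to a peak; IκB kinase complex genes, targets without peaks and single markers were named after their values were seen. Members and lists were chosen with earlier results of these data known. Python 3.11.15 with SciPy 1.17.1 was used, and the interval search was tested on simulated data.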

Additional observations from a re-analysis of the deposited data

How the results depend on the processing

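Of 52 counts and shares under 8 alternatives, 39 stayed within 1.5 times the reported count or inside its binomial interval. Both limits are wide for so few genes and peaks (48.2% to 85.7% for the share on H3K4me3). Staying inside them is therefore a loose criterion. Rela lacked DLX3 in each setting and Nfkbie lacked it when peaks went to the nearest gene. With the top 20% of each list by score, 4 of the 10 genes had DLX3 (Nfkbia, Nfkbie, Nfkbiz and Bcl3) and 3 had it on H3K4me3. At Nfkbie the peaks were those nearest to Hsp90ab1. DLX3 peaks numbered 6, H3K4me3 peaks 9, and 22 and 44 of the other pathway genes had DLX3 and H3K4me3. The share over all coding genes was not computed at this setting, so these gene counts cannot be called high or low. With peaks at or above the median score there were 13 DLX3 and 13 H3K4me3 peaks, with 1 kb flanks 17 and 15, and within 5 kb of the span ends 16 and 15. Given to the nearest gene, H3K4me3 peaks numbered 14. Fewer peaks enter these settings by construction. The share of DLX3 peaks on H3K4me3 ranged from 61.9% to 84.6%. No paired analysis was possible because each antibody has 1 library. Depth is not given, so a gene without a peak may hold signal too weak to call.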

Other observations

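Some peaks in the windows lay over noncoding genes. The DLX3 peak of score 58.65 before the start of Nfkbia lay over Gm36634, a long noncoding RNA gene that the H3K4me3 peak of Nfkbia also reached. At Bcl3, the DLX3 peak of 51.7 lay over Gm34891 and that of 71.48 over Gm16174, both annotated as long noncoding RNA genes. At Nfkb2, the DLX3 peak of 87.02 also lay over 4833438C02Rik, another such gene. The table gives no strand for them, and the lists cannot assign these peaks between the genes that share them.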
